A study of Mus musculus with 6 samples.

Results

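The genes described here code for pore-forming and auxiliary subunits of potassium channels, and were taken by their symbols. The symbols Kcna, Kcnb, Kcnc, Kcnd, Kcnh, Kcnj, Kcnm, Kcnn, Kcnq, Kcns and Kcnt followed by a digit were included, as were the subunit genes of the Kcnip, Kcnab and Kcne series, and the Kcnk genes were left out. Of 32285 genes listed in the count matrices, 69 matched these symbols, and 59 of these, whose mean over the libraries reached 5 CPM in some marker-defined class of nuclei, form the set. CPM stands for unique molecular identifiers (UMIs) of a gene per 1000000 UMIs in the summed nuclei of a library, with totals scaled by TMM. Because measured levels chose the members, levels by class are given as a description with no test. The members nearest the threshold were Kcns1, with 6.36 CPM from 13 UMIs, and Kcnh6, with 7.03 CPM. The nearest genes that missed it were Kcnj14, with 3.89 CPM from 1 UMI, and Kcnab3os, with 2.61 CPM. The working name voltage-gated potassium channel genes describes the rule only in part. It took in 12 inward rectifier genes (Kcnj), 4 genes of calcium-activated channels (Kcnn) and 2 of sodium-activated channels (Kcnt), whose opening is not driven mainly by voltage. It also took in the antisense RNA genes Kcnq1ot1 and Kcnd3os, which code for no channel, and it does not match Kcnma1, the gene of the large-conductance channel gated by voltage and calcium.

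Potassium channels let potassium ions out of the cell and so bring the membrane back to rest after an action potential, set how readily a neuron fires again and fix the resting potential. The Kv1, Kv2, Kv3, Kv4 and Kv7 families open on depolarisation, KChIP and Kv beta proteins are cytoplasmic subunits that tune Kv4 and Kv1 channels, and SK channels open when calcium enters. Inward rectifiers of the Kir3 type couple to G proteins in neurons, and Kir4.1 carries the resting potassium conductance of astrocytes.

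Nuclei came from frozen hippocampi of mice aged 18 to 20 months. In 3 libraries the mice had inhaled the volatile anaesthetic sevoflurane at 2% in 60% oxygen over 6 h, with gas flowing at 1 L/min, and in the other 3 they had received 60% oxygen without the anaesthetic under the same flow and duration. All animals of both groups therefore breathed enriched oxygen, and the labels name no strain or genotype. How many animals entered a library is not stated, so every p-value below measures the spread between 3 and 3 libraries, which may be partly technical.

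After filtering, 51874 nuclei remained, 7734 to 9708 in a library, and deposited totals were 56334621 to 72636984 UMIs per library. Clustering gave 43 clusters. Markers that include no potassium channel gene named 34 of them, which fall into 20 classes written as X-like, while 9 clusters with 5976 nuclei stayed unnamed. Levels are given for 19 classes with at least 20 nuclei in at least 2 libraries, and the treatment comparison was run in the 13 classes with at least 20 nuclei in all 6 libraries. Support from markers ranged from 12 of 12 in the astrocyte-like cluster to 3 of 16 in 2 subicular or cortical excitatory-like clusters. Among the variable genes used for clustering were 13 of the members.

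In 3 of 6 libraries the labelled sex and the sex-linked genes differed. Sevoflurane replicate 1, labelled male, held 1329 CPM of Xist, the RNA of the inactive X chromosome, and 0.341 CPM of 4 Y-linked genes together. The other 5 libraries held at most 1.18 CPM of Xist and 351 to 385 CPM of the Y-linked genes, although replicate 3 of each group is labelled female. The results below are also given without sevoflurane replicate 1 where that changed a call. Pairs of libraries shared 15 to 33 barcodes, at most 0.362% of the smaller library.

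Members differed widely in where they were highest. Of the 59, 25 had their highest level in a class of principal neurons or in Cajal-Retzius-like nuclei, 7 in inhibitory neurons, 12 in glia and 15 in vascular or ventricular cells. Among the 25, Kcnh7, Kcnb2, Kcnj5 and Kcnn1 were highest in Cajal-Retzius-like nuclei. For 6 members that highest level rested on fewer than 20 UMIs in all. A nucleus can carry RNA freed from other cells. Kcnip4, abundant in neurons, stood at 725 CPM in astrocyte-like and 1030 CPM in endothelial-like nuclei, and how much of such levels is free RNA was not tested.

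**Figure D1:**
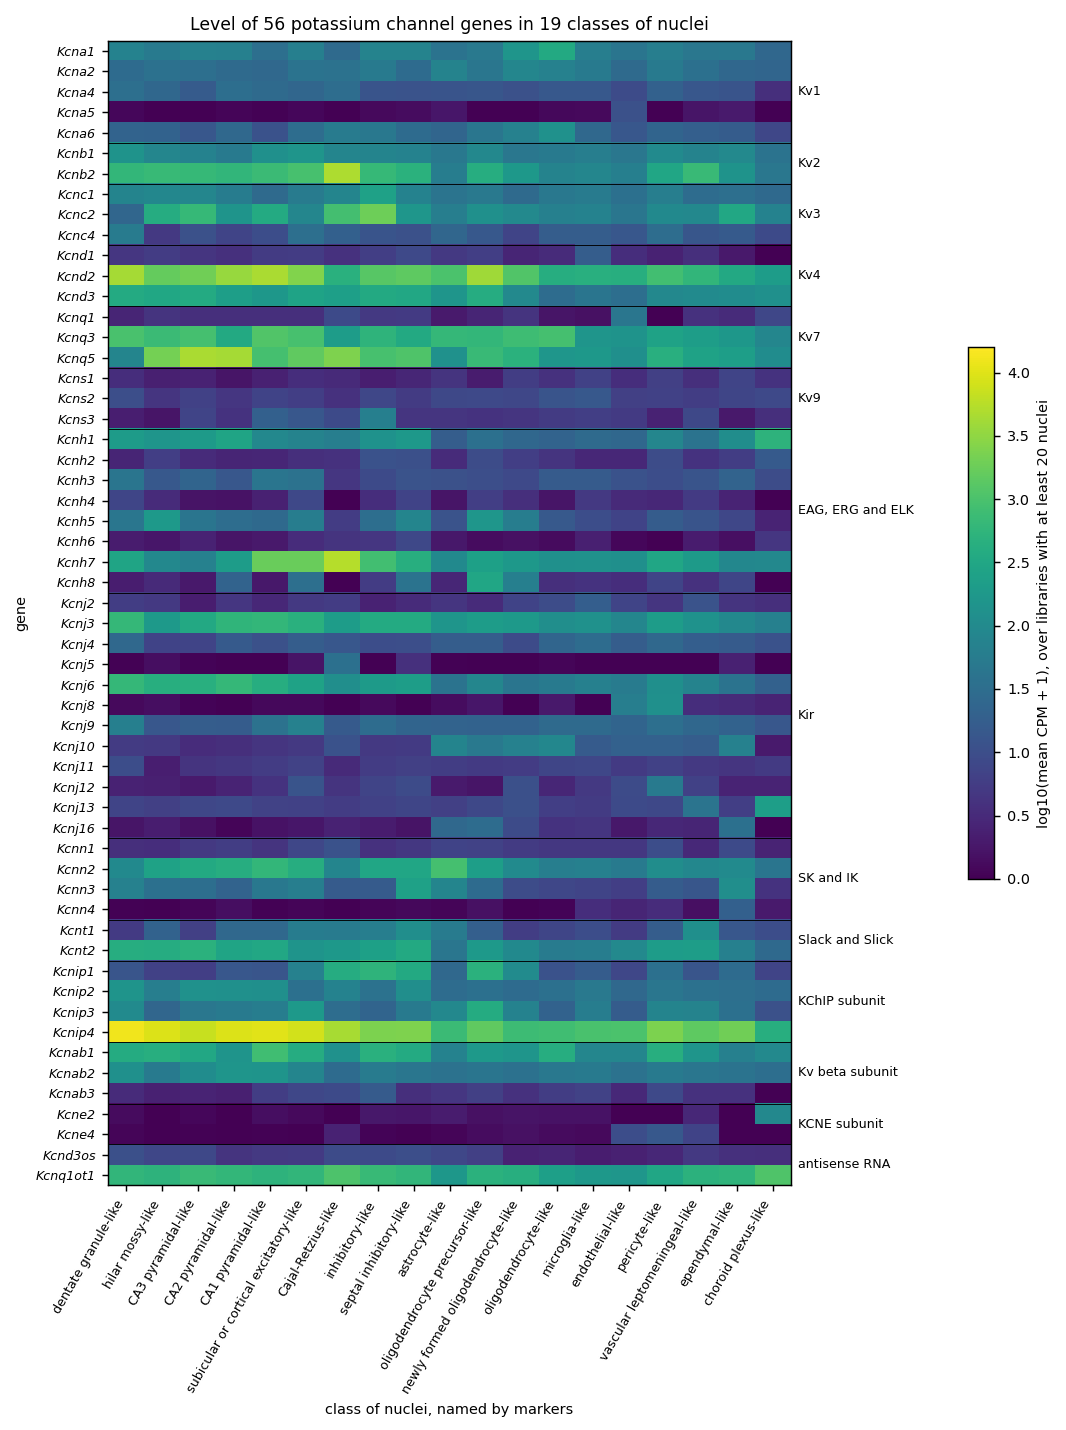
Colour gives log10(mean CPM + 1) of 56 of the genes (vertical axis, grouped by family) in each of 19 classes of nuclei (horizontal axis), averaged over the libraries with at least 20 nuclei of the class. Kcnip4 is bright in all principal neurons, Kcnc2 in inhibitory-like nuclei, Kcnb2 and Kcnh7 in Cajal-Retzius-like nuclei, Kcnj8 in pericyte-like and endothelial-like nuclei, and Kcnj13 and Kcne2 are brightest in choroid plexus-like nuclei.

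Among the Kv1 genes, which code for low-threshold channels of axons, Kcna1 was highest in oligodendrocyte-like nuclei at 360 ± 35.7 CPM (SD, n = 6), 2.33 times its level in newly formed oligodendrocyte-like nuclei, the next class. Kcna6 followed the same order, with 132 ± 27.8 CPM in oligodendrocyte-like and 69.6 ± 17.7 CPM in newly formed oligodendrocyte-like nuclei (n = 6). Within inhibitory neurons Kcna1 reached 126 ± 17.0 CPM in the Pvalb-like cluster against 47.2 ± 5.30 CPM in the Sst-like one (n = 6). Kcna5 was found mainly in endothelial-like nuclei, at 10.2 ± 4.94 CPM. Kcna2 showed no such concentration: its 3 highest classes, newly formed oligodendrocyte-like, astrocyte-like and oligodendrocyte-like, lay between 67.9 and 82.4 CPM and overlapped within their SDs.

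The Kv2 gene Kcnb2, a delayed rectifier subunit, had 4772 ± 769 CPM in Cajal-Retzius-like nuclei (n = 5), 5.04 times the level in subicular or cortical excitatory-like nuclei. The Kv3 genes code for channels that allow fast spiking. Kcnc2 was highest in inhibitory-like nuclei at 1848 ± 375 CPM and lowest in dentate granule-like nuclei at 23.8 CPM, and Kcnc1 was likewise highest in inhibitory-like nuclei at 248 ± 19.02 CPM. Within inhibitory neurons Kcnc2 stood at 2986 ± 515 CPM in Pvalb-like, 2081 ± 534 in Sst-like and 468 ± 149 in Lamp5-like nuclei (n = 6). Kcnc4 had another order and was highest in dentate granule-like nuclei, at 53.9 ± 2.18 CPM. Kcns3, which codes for a silent subunit that joins Kv2 channels, was also highest in inhibitory-like nuclei, at 64.8 ± 19.1 CPM.

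Kv4 channels carry the fast A-type current of dendrites. Kcnd2 had similar levels in CA1 pyramidal-like (4600 ± 363 CPM), dentate granule-like (4292 ± 495 CPM) and oligodendrocyte precursor-like nuclei (3979 ± 640 CPM), which overlapped within their SDs. Kcnd3 likewise spread over oligodendrocyte precursor-like, CA3 pyramidal-like, dentate granule-like and inhibitory-like nuclei, between 355 and 396 CPM, and was lowest in oligodendrocyte-like nuclei at 29.3 CPM. Of the KChIP genes, Kcnip4 led in dentate granule-like nuclei at 13100 ± 1382 CPM, Kcnip1 in inhibitory-like nuclei at 529 ± 51.2 CPM and in oligodendrocyte precursor-like nuclei at 481 ± 90.4 CPM, and Kcnip3 in oligodendrocyte precursor-like nuclei at 385 ± 81.1 CPM. Kcnip2 differed little among dentate granule-like, CA3, CA2 and CA1 pyramidal-like nuclei, at 121 to 147 CPM.

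Some Kv7 subunits form the M current, which muscarinic receptors close. Kcnq5 differed widely among the principal neurons, with 4657 ± 644 CPM in CA3 pyramidal-like and 4245 ± 982 in CA2 pyramidal-like nuclei against 80.3 CPM in dentate granule-like nuclei, its lowest class. Kcnq3 was high in CA1 pyramidal-like (1131 ± 223 CPM) and dentate granule-like nuclei (970 ± 191), and oligodendrocyte-like nuclei overlapped these within their SDs, at 910 ± 207 CPM. Kcnq1 was highest in endothelial-like nuclei, at 42.7 ± 13.6 CPM and 5.51 times its next class. Among the EAG, ERG and ELK genes, a family related to the channel of the heart's repolarisation, Kcnh7 had 5360 ± 1164 CPM in Cajal-Retzius-like nuclei and 70.1 CPM in CA3 pyramidal-like ones. Kcnh8 was highest in oligodendrocyte precursor-like nuclei (303 ± 37.1 CPM), but it was also the leading gene of 1 subicular or cortical cluster, with 368 CPM there and 1.01 to 3.20 CPM in 6 other clusters of that class.

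Several Kir genes were highest outside the neurons. Kcnj10, which codes for Kir4.1, had 85.6 ± 12.4 CPM in oligodendrocyte-like, 78.8 ± 25.6 in astrocyte-like, 69.2 ± 17.0 in ependymal-like and 68.1 ± 18.8 in newly formed oligodendrocyte-like nuclei, which overlapped within their SDs. Kcnj16, its partner Kir5.1, was found at 34.1 ± 11.2 CPM in ependymal-like nuclei. Its levels in oligodendrocyte precursor-like (29.4 ± 8.06 CPM) and astrocyte-like nuclei (25.0 ± 6.27 CPM) overlapped this within their SDs. Kcnj8, the pore of the potassium channel that ATP closes in vessel walls, had 128 ± 32.0 CPM in pericyte-like nuclei (n = 5) and 61.2 ± 16.6 in endothelial-like nuclei (n = 6). Kcnj13 and the KCNE subunit gene Kcne2 were highest in choroid plexus-like nuclei, at 222 ± 72.4 and 88.7 ± 6.46 CPM, from the 2 oxygen libraries with at least 20 such nuclei. The oxygen libraries held 60, 16 and 99 choroid plexus-like nuclei and the sevoflurane libraries 0. The G protein-coupled Kir3 genes Kcnj3 and Kcnj6 were highest in dentate granule-like nuclei, with 617 ± 118 and 633 ± 58.6 CPM. Kcnj3 in CA1 pyramidal-like (598 ± 22.0 CPM) and Kcnj6 in CA2 pyramidal-like nuclei (621 ± 71.6 CPM) overlapped these within their SDs. Kcnj3 was not confined to neurons, with 209 CPM in oligodendrocyte precursor-like and 183 CPM in hilar mossy-like nuclei.

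Of the SK genes, Kcnn2 was highest outside the neurons, with 911 ± 89.1 CPM in astrocyte-like nuclei, 1.51 times its level in CA1 pyramidal-like nuclei. Kcnn3 had 250 ± 56.0 CPM in septal inhibitory-like nuclei. That class held 12, 13 and 17 nuclei in the oxygen libraries and 167, 216 and 182 in the sevoflurane libraries. Its level therefore comes from the 3 sevoflurane libraries. Kcnn3 stood at 120 ± 26.8 CPM in ependymal-like and 79.3 ± 24.9 CPM in astrocyte-like nuclei. Of the sodium-activated channel genes, Kcnt2 was highest in CA3 pyramidal-like nuclei at 489 ± 38.8 CPM and Kcnt1 in vascular leptomeningeal-like nuclei at 124 ± 34.2 CPM. Septal inhibitory-like nuclei overlapped that Kcnt1 level within their SDs, at 116 ± 10.4 CPM. The Kv beta gene Kcnab1 led in CA1 pyramidal-like nuclei, at 819 ± 138 CPM.

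After sevoflurane, members fell far more often than they rose. In each of the 13 classes edgeR's quasi-likelihood test was run over all genes, and called means an adjusted p (Benjamini-Hochberg) below 0.05. Of 511 tests of a member in a class, 27 were called, of which 26 were falls and 1 was a rise. The calls concern 14 members in 7 classes, and in all 27 the 3 sevoflurane libraries did not overlap the 3 oxygen libraries. In each of these 7 classes more of all genes tested were also called lower than higher, and the shares are given by class below. The filter on low counts let 54 members be tested in at least 1 class. In these summed counts, fewer nuclei of a subtype and less RNA in each nucleus cannot be told apart. Of the 27 calls, 22 remained without sevoflurane replicate 1, and 8 remained whichever library was left out.

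Dentate granule-like nuclei had the most calls. There 7 of 53 tested members fell and 0 rose, against 4.69% of all genes called, 3.22% lower and 1.47% higher. The median log2 fold change of the members was -0.11, against 0.02 for all genes tested. In CA1 pyramidal-like nuclei 5 of 50 fell, where 2.06% of all genes were called, 1.55% lower and 0.514% higher. In inhibitory-like nuclei 5 of 50 fell (1.78% of all genes, 1.38% lower and 0.398% higher), and in CA3 pyramidal-like nuclei 3 of 46 did (1.49%, 1.3% lower and 0.19% higher). In subicular or cortical excitatory-like nuclei 3 of 53 fell (1.4%, 0.968% lower and 0.428% higher), and in oligodendrocyte-like nuclei 1 of 42 did, where 0.904% of all genes were called and 0.738% and 0.167% were lower and higher. In astrocyte-like nuclei 2 of 43 fell and 1 rose, against 2.16% of all genes, 1.23% lower and 0.934% higher.

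**Figure D2:**
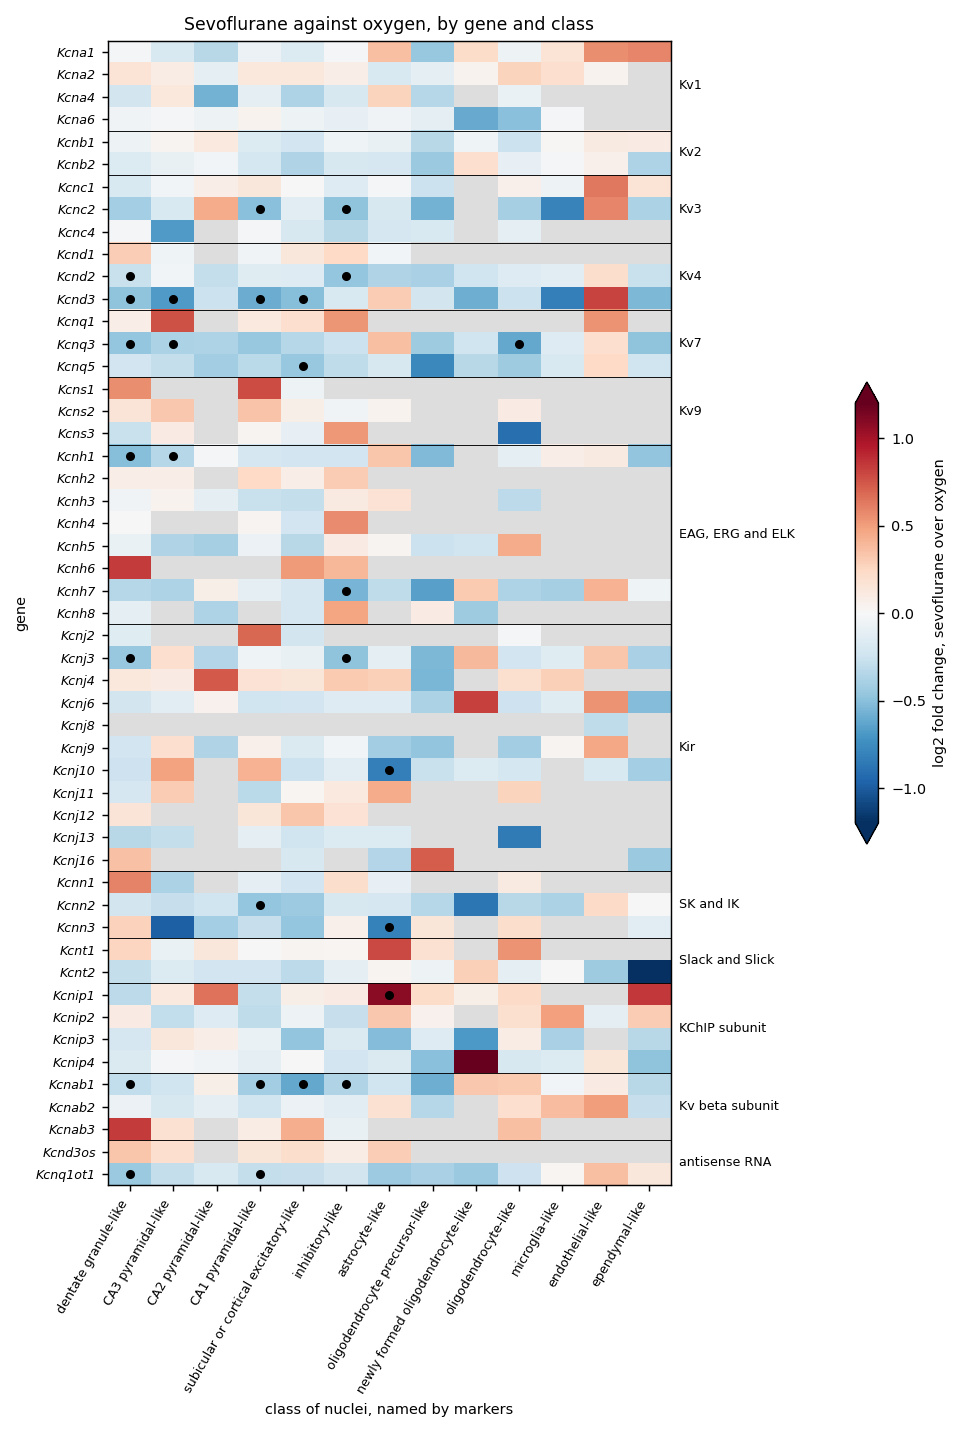
Colour gives the log2 fold change of sevoflurane over oxygen for 51 of the genes tested in at least 1 class (vertical axis, by family) in 13 classes (horizontal axis), black dots mark the 27 calls at an edgeR adjusted p under 0.05, and grey marks pairs not tested. Dots lie mainly on blue in the neuronal classes, and the 1 dot on red is Kcnip1 in astrocyte-like nuclei.

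Kcnd3, the Kv4.3 subunit gene at chr3:105452330-105674002 (GRCm38, plus strand), was among the members called in the largest number of classes. In dentate granule-like nuclei the oxygen libraries held 434, 455 and 412 CPM and the sevoflurane libraries 313, 307 and 305 CPM, in the order of replicates. All 3 sevoflurane libraries were below all 3 oxygen libraries, a log2 fold change of -0.49 with a standard error (SE) of 0.06 and an edgeR adjusted p of 0.00321. In CA3 pyramidal-like nuclei the oxygen libraries held 483, 454 and 437 CPM and the sevoflurane libraries 275, 315 and 269 CPM. The gap was wider here, a log2 fold change of -0.68 ± 0.08 (SE; edgeR adjusted p = 0.00307), and both of these calls remained whichever library was left out. Kcnd3 also fell in CA1 pyramidal-like nuclei by 0.59 and in subicular or cortical excitatory-like nuclei by 0.51 on the log2 scale. The subicular or cortical call was lost without any 1 oxygen library. In inhibitory-like nuclei Kcnd3 did not pass the test, with 378 ± 15.7 CPM under oxygen and 332 ± 26.0 after sevoflurane (n = 3 each, log2 fold change -0.18, edgeR adjusted p = 0.295). Its response was below 0 in 11 of the 13 classes. The antisense gene Kcnd3os overlaps the start of Kcnd3 on the other strand, at chr3:105441595-105452955, and was not called in any class, with a log2 fold change of 0.34 ± 0.14 in dentate granule-like nuclei (edgeR adjusted p = 0.238). Whether the counting used the strand is not stated, so how reads in the shared stretch were assigned is not known here.

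**Figure D3:**
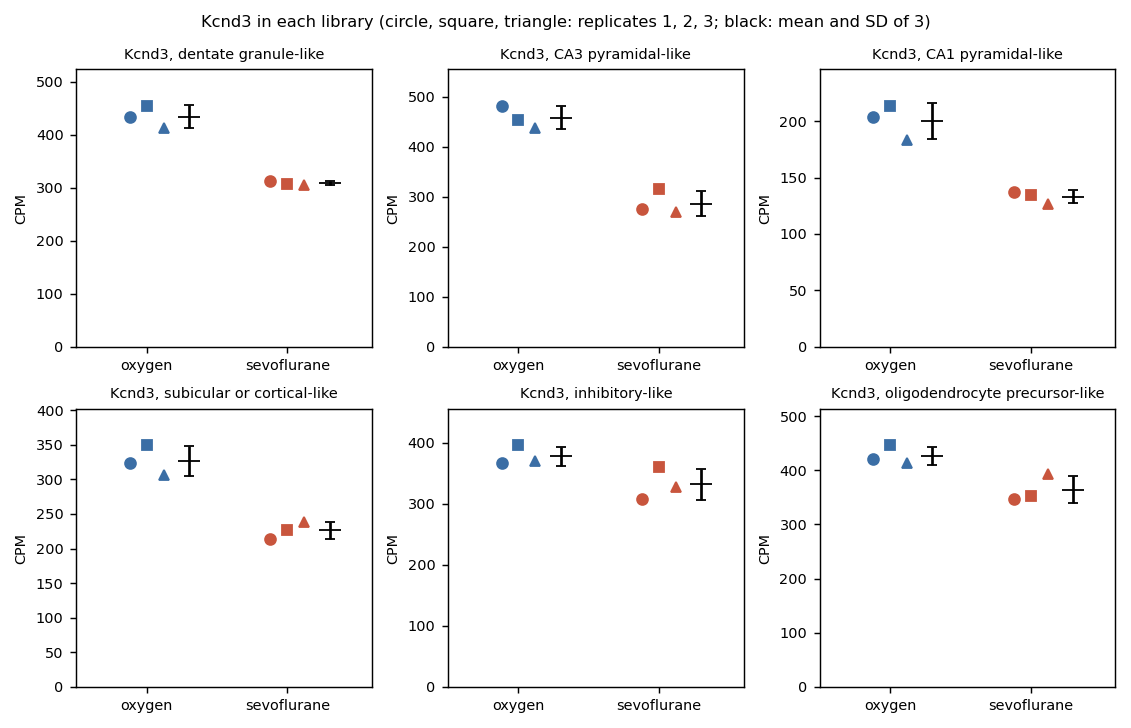
CPM of Kcnd3 (vertical axes, from 0) in each oxygen and sevoflurane library, in 6 classes of nuclei, with circle, square and triangle for replicates 1, 2 and 3 and the mean with its SD in black (n = 3). The sevoflurane libraries lie below the oxygen libraries in every panel, and in inhibitory-like and oligodendrocyte precursor-like nuclei Kcnd3 was not called.

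Kcnd2, the Kv4.2 subunit gene, fell in inhibitory-like nuclei from 1602, 1339 and 1490 CPM under oxygen to 1010, 1061 and 1125 CPM after sevoflurane. The groups did not overlap, and the log2 fold change was -0.47 ± 0.08 (SE; edgeR adjusted p = 0.00587). In dentate granule-like nuclei it fell by 0.26 on the log2 scale (edgeR adjusted p = 0.0413), a call lost without any of the libraries but sevoflurane replicate 3 (edgeR adjusted p = 0.103 without sevoflurane replicate 1). Kcnip1 was the one KChIP gene called. Kcnip4 did not pass the test in any class, with 13900 ± 849 CPM under oxygen and 12300 ± 1467 after sevoflurane in dentate granule-like nuclei (edgeR adjusted p = 0.318).

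Kcnab1, which codes for the Kv beta-1 subunit that speeds the inactivation of Kv1 channels, was called in 4 classes. In subicular or cortical excitatory-like nuclei it stood at 456, 494 and 492 CPM under oxygen and at 310, 294 and 329 CPM after sevoflurane. The groups were well apart, with a log2 fold change of -0.61 ± 0.07 (SE; edgeR adjusted p = 0.0144). In inhibitory-like nuclei it went from 519, 499 and 539 CPM to 382, 410 and 417 CPM, again with no overlap (log2 fold change -0.36 ± 0.07, edgeR adjusted p = 0.0173). Without sevoflurane replicate 1 the edgeR adjusted p of that call was 0.0506, and it was also lost without oxygen replicate 1 or 3. It also fell by 0.41 in CA1 pyramidal-like and by 0.30 in dentate granule-like nuclei on the log2 scale. The subicular or cortical call was lost without any 1 oxygen library, and the last 2 calls also without sevoflurane replicate 2 (largest edgeR adjusted p = 0.133 over these 3 classes). The other Kv beta genes, Kcnab2 and Kcnab3, and the 4 tested Kv1 genes were not called in any class.

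Of the Kv7 genes, Kcnq3 and Kcnq5 fell. In dentate granule-like nuclei Kcnq3 had 1110, 1232 and 1041 CPM under oxygen and 722, 884 and 831 CPM after sevoflurane. The lowest oxygen library was above the highest sevoflurane library (log2 fold change -0.47 ± 0.09, edgeR adjusted p = 0.0158). In oligodendrocyte-like nuclei, a class outside the neurons, Kcnq3 had 1121, 1087 and 1083 CPM under oxygen and 770, 685 and 712 CPM after sevoflurane. The oxygen libraries lay close together there and the fall was -0.61 ± 0.11 on the log2 scale (SE; edgeR adjusted p = 0.0198). Dentate granule markers in the same oligodendrocyte-like nuclei summed to 2945 to 3843 CPM under oxygen and 2390 to 3036 CPM after sevoflurane, with Stxbp6 called lower. The part of other cell types in the Kcnq3 value was not tested. The dentate call was lost without oxygen replicate 1 or 2, and the oligodendrocyte call without any 1 oxygen library (largest edgeR adjusted p = 0.124). In CA3 pyramidal-like nuclei Kcnq3 fell by 0.38, which was lost without sevoflurane replicate 1 (edgeR adjusted p = 0.0611) or 3 and without oxygen replicate 1 or 2. Kcnq5 was called in subicular or cortical excitatory-like nuclei only, where it fell by 0.46, and it was lost without sevoflurane replicate 1 (edgeR adjusted p = 0.0841) or any 1 oxygen library (at most 0.184). Its log2 fold change was below 0 in 12 of 13 classes.

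Kcnh1, an EAG channel gene, fell in dentate granule-like nuclei from 238, 247 and 228 CPM to 160, 171 and 166 CPM. This pair had the smallest adjusted p of all, 0.0028 by edgeR, at a log2 fold change of -0.51 ± 0.06, and it was called whichever library was left out. In CA3 pyramidal-like nuclei Kcnh1 fell by 0.34, and that call was lost with any 1 of the 6 libraries left out (largest edgeR adjusted p = 0.152). The ERG gene Kcnh7 fell in inhibitory-like nuclei from 959, 1045 and 974 CPM to 752, 550 and 720 CPM. Its sevoflurane libraries were spread more widely but stayed below the oxygen libraries (log2 fold change -0.55 ± 0.10, edgeR adjusted p = 0.0169), and the call was lost without any 1 oxygen library (at most 0.098).

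Among the Kv3 genes, Kcnc2 alone was called. In CA1 pyramidal-like nuclei it had 408, 410 and 470 CPM under oxygen and 304, 289 and 320 CPM after sevoflurane. The groups did not overlap (log2 fold change -0.50 ± 0.08, edgeR adjusted p = 0.00985). In inhibitory-like nuclei, where its level is highest, it fell by 0.48 on the log2 scale (edgeR adjusted p = 0.0295), lost without any 1 oxygen library or sevoflurane replicate 3 (at most 0.143). Split into 4 inhibitory clusters, an analysis chosen after the data had been seen, Kcnc2 was called in 3, with -0.66 in the Sst-like, -0.76 in the Lamp5-like and -0.26 in the Pvalb-like cluster. The Pvalb-like cluster was the one in which it was not called (edgeR adjusted p = 0.6). The differences between these clusters were not tested.

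Kcnj3, the Kir3.1 subunit gene, fell in inhibitory-like nuclei from 420, 429 and 435 CPM to 335, 292 and 291 CPM. The 3 oxygen libraries were nearly equal and the sevoflurane libraries lay below them (log2 fold change -0.48 ± 0.08, edgeR adjusted p = 0.00404). In dentate granule-like nuclei it went from 699, 770 and 675 CPM to 580, 459 and 520 CPM, also without overlap (log2 fold change -0.45 ± 0.09, edgeR adjusted p = 0.0212). The dentate call was lost without any 1 oxygen library or sevoflurane replicate 2 (largest edgeR adjusted p = 0.0876). In CA1 pyramidal-like nuclei the groups overlapped, at -0.05 ± 0.06. The SK gene Kcnn2 was called in CA1 pyramidal-like nuclei, where the oxygen libraries held 660, 741 and 694 CPM and the sevoflurane libraries 545, 500 and 474 CPM (log2 fold change -0.47 ± 0.07, edgeR adjusted p = 0.00985). The groups did not overlap, and without oxygen replicate 2 the adjusted p was 0.0636 by edgeR. In astrocyte-like nuclei, its highest class, it had 976 ± 22.5 CPM under oxygen and 845 ± 80.8 after sevoflurane (n = 3 each) and was not called (edgeR adjusted p = 0.466).

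The antisense RNA Kcnq1ot1, an imprinted transcript that lies inside Kcnq1 on the other strand (chr7:143203458-143296549, GRCm38), fell in dentate granule-like nuclei from 648, 708 and 677 CPM to 485, 489 and 515 CPM. The groups were separate (log2 fold change -0.44 ± 0.06, edgeR adjusted p = 0.00397), and the call remained whichever library was left out. In CA1 pyramidal-like nuclei it fell by 0.28 on the log2 scale, a call that remained only without sevoflurane replicate 1 among the libraries left out. How reads on the 2 strands of this stretch were assigned is not stated. Over all nuclei Kcnq1ot1 held 200164 UMIs and Kcnq1 itself 1086. In dentate granule-like nuclei Kcnq1, at 1.72 CPM, was far less abundant.

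In astrocyte-like nuclei the falls were the largest of all called pairs, with Kcnj10 and Kcnn3 below their oxygen levels. Kcnj10 had 113, 86.7 and 101 CPM under oxygen and 63.3, 60.6 and 47.9 CPM after sevoflurane. Every sevoflurane library lay below every oxygen library (log2 fold change -0.82 ± 0.15, edgeR adjusted p = 0.00751). In 2 other classes with similar Kcnj10 levels the groups overlapped, at -0.21 ± 0.14 in oligodendrocyte-like and -0.41 ± 0.28 in ependymal-like nuclei. Kcnn3, the SK3 gene, had 99.2, 113 and 89.7 CPM under oxygen and 65.7, 52.2 and 56.1 CPM after sevoflurane. Its groups were equally separate (log2 fold change -0.81 ± 0.14, edgeR adjusted p = 0.00564). Leaving out oxygen replicate 1 took Kcnj10 to an edgeR adjusted p of 0.0517, and leaving out oxygen replicate 2 took Kcnn3 to 0.0582.

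Kcnip1, which codes for a KChIP subunit most abundant in inhibitory-like nuclei, rose in astrocyte-like nuclei from 18.5, 13.4 and 15.6 CPM to 47.9, 26.1 and 30.3 CPM. The rise was 1.08 ± 0.24 on the log2 scale (SE; edgeR adjusted p = 0.0249), sevoflurane replicate 1 was the highest library, and without it the value was 0.83 (adjusted p = 0.0428). Leaving out any 1 of the oxygen libraries lost the call (largest edgeR adjusted p = 0.175). It was also lost when only nuclei with at least 1000 UMIs and at most 1% mitochondrial UMIs were used (0.89, edgeR adjusted p = 0.15). The summed level of 11 inhibitory markers in the same astrocyte-like nuclei was 982 to 1245 CPM under oxygen and 959 to 1087 CPM after sevoflurane, with 0 of 9 tested markers called. The 10 oligodendrocyte precursor markers, a class also rich in Kcnip1, summed to 2800 to 3479 CPM under oxygen and 2116 to 2360 CPM after sevoflurane. The part of other cell types in the Kcnip1 value was not tested. None of these markers was at 0. The 12 astrocyte markers themselves summed to 15040 to 15920 CPM under oxygen and 11510 to 13650 CPM after sevoflurane, with Aldh1l1 and Gli3 called, 1 in each direction, and their part in the falls of Kcnj10 and Kcnn3 was not tested. Sevoflurane replicate 1 had the fewest astrocyte-like nuclei, 434. Without it 6 members were called in this class in place of 3, the others being Kcnip3 (-1.10), Kcnt1 (0.88) and Kcnd3 (0.58). The 2.16% of all genes called in this class belongs to the fit of all 6 libraries, and the share without this library is not given here.

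**Figure D4:**
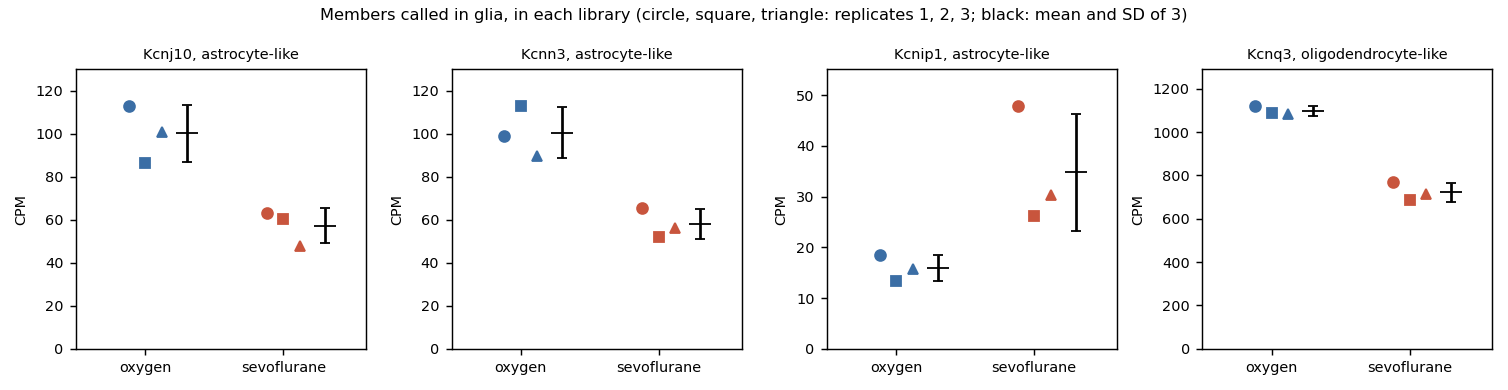
CPM in each library (vertical axes, from 0) of Kcnj10, Kcnn3 and Kcnip1 in astrocyte-like nuclei and of Kcnq3 in oligodendrocyte-like nuclei, with circle, square and triangle for replicates 1, 2 and 3 and the mean with its SD in black (n = 3). The sevoflurane libraries lie below the oxygen libraries for Kcnj10, Kcnn3 and Kcnq3 and above them for Kcnip1, where replicate 1 is highest at 47.9 CPM.

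The promoters of 3 members that fell are shown because these members had the largest called falls in neurons (Kcnd3) and in astrocyte-like nuclei (Kcnj10 and Kcnn3). They are RefSeq windows of 250 bases before to 50 bases after the start on GRCm38.p6, plus strand, in lower case with GC boxes (GGGCGG on either strand) in capitals. The windows lie at chr3:105451640-105451939 for Kcnd3, which falls inside the span of Kcnd3os, at chr1:172340960-172341259 for Kcnj10 and at chr3:89519914-89520213 for Kcnn3.
Kcnd3: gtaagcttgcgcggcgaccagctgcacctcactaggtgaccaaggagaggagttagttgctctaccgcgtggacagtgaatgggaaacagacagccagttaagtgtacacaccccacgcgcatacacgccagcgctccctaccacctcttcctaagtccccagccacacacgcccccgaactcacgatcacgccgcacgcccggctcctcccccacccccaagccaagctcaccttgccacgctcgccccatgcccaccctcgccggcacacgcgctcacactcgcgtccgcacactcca
Kcnj10: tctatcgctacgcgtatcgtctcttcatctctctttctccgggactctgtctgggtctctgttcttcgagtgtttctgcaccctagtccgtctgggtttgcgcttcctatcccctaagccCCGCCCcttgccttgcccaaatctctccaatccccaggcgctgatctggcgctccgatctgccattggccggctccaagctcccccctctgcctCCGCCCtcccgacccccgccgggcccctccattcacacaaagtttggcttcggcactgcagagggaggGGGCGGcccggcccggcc
Kcnn3: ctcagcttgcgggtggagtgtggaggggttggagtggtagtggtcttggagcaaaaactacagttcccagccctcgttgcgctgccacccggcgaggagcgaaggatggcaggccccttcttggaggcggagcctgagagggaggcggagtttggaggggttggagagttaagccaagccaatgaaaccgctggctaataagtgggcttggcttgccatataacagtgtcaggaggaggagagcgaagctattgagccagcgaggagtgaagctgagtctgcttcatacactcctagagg

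The Kcnj10 window held 3 GC boxes and the Kcnd3 and Kcnn3 windows held 0. Of 64 windows that matched 44 members, 32 held a GC box, against 35.7% of all 32851 promoters in the table. The cAMP response element TGACGTCA was in 0 of the 64 windows and in 1.79% of all, and the TATA box TATAAA was in 4 of the 64 and in 13.6% of all. Both strands were searched, the motifs and promoters were chosen after the data had been seen, and a match is a description of the letters only.

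Several members are long genes, and long genes of all kinds had lower log2 fold changes than short ones. In dentate granule-like nuclei the median log2 fold change of all 997 tested genes over 200 kb was -0.22, and 25.2% of them were called lower, against 0.07 and 0.651% for genes under 30 kb. The 16 members over 200 kb had a median of -0.25 with 5 called, and the 20 members under 30 kb had a median of 0.06 with 0 called. In CA1 pyramidal-like nuclei 11.3% of all genes over 200 kb were called lower, and 3 of 15 such members were. With a length correction, in which a smooth trend of counts on gene span was removed, 11 of the 27 calls were kept and 0 changed sign. Kcnd3 was kept in CA3 pyramidal-like (-0.54), CA1 pyramidal-like (-0.47) and dentate granule-like nuclei (-0.33), and Kcnj10 (-0.84), Kcnn3 (-0.74) and Kcnip1 (1.23) in astrocyte-like nuclei. Kcnq1ot1 and Kcnh1 in dentate granule-like nuclei, Kcnab1 in subicular or cortical excitatory-like nuclei, Kcnj3 in inhibitory-like nuclei and Kcnc2 in CA1 pyramidal-like nuclei were also kept. The corrected fits called 12 pairs, 10 lower and 2 higher (83.3% lower, against 96.3% without the correction). The added pair was a rise of Kcnn3 in dentate granule-like nuclei (0.39, edgeR adjusted p = 0.0265). All calls of Kcnq3, Kcnd2, Kcnh7, Kcnq5 and Kcnn2 were lost with the correction.

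**Figure D5:**
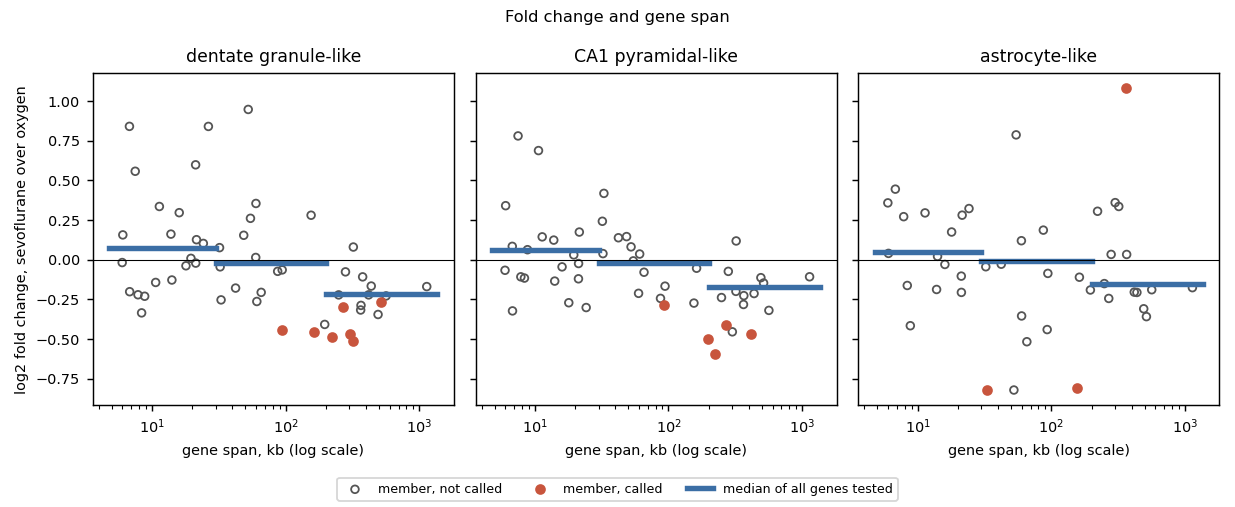
Log2 fold change of sevoflurane over oxygen (vertical axis) against gene span in kb (horizontal, log scale) for the members in 3 classes, filled where called, with blue bars for the median of all genes tested under 30 kb, from 30 to 200 kb and over 200 kb. The bars step down with span, to -0.22 in dentate granule-like nuclei, and Kcnj10 in astrocyte-like nuclei is a called member with a span of 32876 bases.

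The called pairs in classes of several clusters were also fitted in single clusters, an alternative added after the data had been seen. These fits use parts of the same nuclei in which the pairs had been called, so their direction is no independent evidence. Of 54 such values 27 were called, while of all genes between 2 of 9870 (cluster 22) and 387 of 12229 (cluster 7) were called in a cluster. Kcnd3 was called in both CA3 pyramidal-like clusters (-0.57 and -0.69) and in both CA1 pyramidal-like clusters (-0.57 and -0.46), and in 3 of 6 subicular or cortical clusters, over which it ranged from -0.68 to -0.06. Kcnab1 ranged from -0.85 to -0.21 over the same 6 clusters, with 3 called. In dentate granule-like nuclei the 11 inhibitory markers summed to 2047 to 2198 CPM under oxygen and 1832 to 1912 CPM after sevoflurane, with 0 of 11 called and no marker at 0. The dentate granule markers themselves were lower there, at 6875 to 7352 CPM under oxygen and 5382 to 5700 CPM after sevoflurane, with 6 of 10 called lower. Own markers also summed lower in inhibitory-like nuclei (21330 to 25170 against 17860 to 19320 CPM) and CA3 pyramidal-like nuclei (3396 to 3534 against 2954 to 3008). In oligodendrocyte-like nuclei they stood at 13190 to 13730 CPM under oxygen against 9922 to 12400 after sevoflurane. In CA1 pyramidal-like nuclei the groups overlapped (6163 to 7630 against 6304 to 6549). The part of these markers in the results was not tested.

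The response was compared directly between classes with limma. Of 52 members tested, 3 differed between dentate granule-like and CA1 pyramidal-like nuclei, where 0.804% of all genes were called, 0.485% with a lower and 0.319% with a higher response in the first class. Kcnj3 fell more in dentate granule-like nuclei, by 0.41 ± 0.07 on the log2 scale (SE; limma adjusted p = 0.0163), and without sevoflurane replicate 1 the adjusted p was 0.00858. Kcnn3 responded higher there by 0.54 ± 0.10 (limma adjusted p = 0.025), as it stood at 0.28 in dentate granule-like and at -0.27 in CA1 pyramidal-like nuclei, and Kcnip2 by 0.39 ± 0.08 (limma adjusted p = 0.0457). Without sevoflurane replicate 1 the last 2 had limma adjusted p of 0.0729 and 0.117. Between dentate granule-like and inhibitory-like nuclei 0 of 50 members differed by limma, with 10 at an unadjusted p under 0.05, and 0.321% of all genes were called (0.226% lower and 0.0949% higher).

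In the remaining classes no member was called by edgeR. Oligodendrocyte precursor-like nuclei had 29 of 36 members below 0, with a median of -0.34 against 0.01 for all genes tested, 11 at an unadjusted p under 0.05 and 1 called by DESeq2. Of all genes 0.0296% were called in that class, all 3 of them lower. Kcnab1 had the smallest p there, at 220 CPM under oxygen and 146 CPM after sevoflurane (edgeR adjusted p = 0.124). Endothelial-like nuclei leaned the other way, with 4 of 27 members below 0 and a median of 0.24 against -0.00266 for all genes tested. Of all genes 2.72% were called there (1.3% lower and 1.43% higher). The list of proteins that bind or place potassium channels, read below, had a median of 0.154 in this class. Libraries held 55 (sevoflurane replicate 1) to 190 endothelial-like nuclei. In that class 1 member had an unadjusted p under 0.05 and DESeq2 called 0. In microglia-like nuclei 0 of 27 members were called by edgeR (0.541% of all genes, 0.422% lower and 0.119% higher), with 3 at an unadjusted p under 0.05. In ependymal-like nuclei 0 of 27 were called (0.484%, 0.171% lower and 0.313% higher), with 3 at that p, and in CA2 pyramidal-like nuclei 0 of 34 (0.0975%, 0.0866% lower and 0.0108% higher), with 8. In newly formed oligodendrocyte-like nuclei 0 of 23 were called (0.0%), with 2. DESeq2 called 0 in each of these 4 classes.

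Over all nuclei together, 6 of 59 members fell and 0 rose, against 2.01% of all genes called (1.25% lower and 0.76% higher). They were Kcnd3 (-0.42 ± 0.06, edgeR adjusted p = 0.0241), Kcnab1 (-0.33), Kcnn2 (-0.38), Kcnq1ot1 (-0.29), Kcnq5 (-0.30) and Kcnc2 (-0.42) on the log2 scale. With each of the 13 tested classes given the same share in every library, 8 members were called and Kcnd3 fell by 0.47. That fit leaves out the nuclei of all other clusters and does not even out the mix of subtypes within a class. The 6 calls over all nuclei rested on all libraries: leaving out 1 library left 1 call at most, which was Kcnd3 without sevoflurane replicate 1, and the length correction left 0.

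Further lists of related genes were read beside the members. Of 17 potassium channel genes outside the symbol rule, 11 were tested in dentate granule-like nuclei. Kcng3, a silent subunit, rose there by 0.45, where 1.47% of all genes were called higher. In CA1 pyramidal-like nuclei 10 were tested and Kcnf1, another silent subunit, rose by 1.01, from 2.80 to 5.64 CPM. There 0.514% of all genes were called higher. Of 21 genes for proteins that bind or place potassium channels, 0 rose in any class. In dentate granule-like nuclei 2 of 20 tested fell, against 3.22% of all genes called lower. In subicular or cortical excitatory-like nuclei 2 of 20 fell (0.968% of all genes lower), and in CA3 pyramidal-like nuclei 1 of 20 did (1.3%). Dlg1, a scaffold of synapses and axons, fell by 0.40 in dentate granule-like nuclei (edgeR adjusted p = 0.00839) and by 0.40 in subicular or cortical excitatory-like nuclei (adjusted p = 0.0307). Adam22, a receptor for the LGI1 protein, fell by 0.32 in dentate granule-like nuclei, and Nedd4l, a ubiquitin ligase, by 0.33 in subicular or cortical excitatory-like nuclei. Ank3, which codes for a scaffold of the axon initial segment, fell by 0.27 in CA3 pyramidal-like nuclei (edgeR adjusted p = 0.0496). Without sevoflurane replicate 1 the edgeR adjusted p was 0.0744 for Kcng3, 0.0617 for Kcnf1, 0.0535 for Dlg1 in subicular or cortical excitatory-like nuclei, 0.101 for Nedd4l and 0.088 for Ank3. With each of the 6 libraries left out in turn, Dlg1 in dentate granule-like nuclei was called 6 times, Adam22 and the other call of Dlg1 2 times each, Kcng3 and Kcnf1 1 time each, and Nedd4l and Ank3 0 times. The median of this second list lay between -0.13 and 0.15 over the 13 classes, and of the 7 calls over both lists that of Kcng3 was kept with the length correction (edgeR adjusted p = 0.0428) and the other 6 were lost.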

How the data were processed

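Single-nucleus libraries of 6 hippocampal samples, 3 per group, were deposited by the authors as raw UMI counts per gene and nucleus, made with fastp, Cell Ranger 7.1.0 and the mm10 build, per the submitters' processing notes. Whether introns or strand were used in counting is not given in the sources used here.

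Barcodes with at least 500 UMIs, 300 genes and at most 5% mitochondrial UMIs were kept (53287 of 53824), and 1413 doublets called by Scrublet (scanpy 1.11.5) at 1 threshold common to all libraries were removed. Nuclei were clustered on a shared-neighbour graph (20 neighbours, 40 components, Leiden resolution 1) and clusters were named from 23 marker lists. A class could differ from one defined by the study, since names were rebuilt. Counts were summed per library and class and tested with edgeR 4.0.16 (TMM, filterByExpr, quasi-likelihood test, Benjamini-Hochberg adjustment over all genes). Response differences between classes used limma 3.58.1 on log2 CPM with a prior count of 2. R was 4.3.3. The fits were tested on simulated data: in dentate granule-like nuclei 25% of genes changed by 0.5 on the log2 scale and 81.2% of those changed by 1 were recovered (15999 genes).

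Alternatives were DESeq2 1.42.0, no filter on low counts, a replicate block, equal class shares, stricter nuclei (at least 1000 UMIs and at most 1% mitochondrial UMIs), leaving out each library, and a length correction by lowess (span 0.3) on GENCODE M21 gene spans, to which 32158 of 32285 genes matched. Values in every library are given for the 16 called pairs with the smallest adjusted p, at most 2 a member, and other called pairs by their log2 fold change. Of the further lists the 6 genes with the smallest adjusted p are named. The members and lists were chosen with earlier results of these data known. The rule for naming clusters, the doublet threshold, the minimum of 20 nuclei in 2 libraries for a level, the fits within clusters and the promoters and motifs were chosen after seeing the data. Results of 3 members are not reported here.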

Additional observations from a re-analysis of the deposited data

Results flagged for a closer look

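The response to sevoflurane differed between dentate granule-like and CA1 pyramidal-like nuclei for 3 members by limma's test of the difference itself. Kcnj3 had a difference of -0.4119 on the log2 scale: its CA1 pyramidal-like libraries held 593, 606 and 628 CPM under oxygen and 611, 563 and 589 CPM after sevoflurane, which overlap, while its dentate granule-like libraries did not overlap. Kcnn3 had a difference of 0.5399, with 60.7, 61.1 and 66.5 CPM under oxygen and 69.5, 75.9 and 82.3 CPM after sevoflurane in dentate granule-like nuclei, and 51.7, 57.1 and 48.2 against 39.9, 48.0 and 42.5 CPM in CA1 pyramidal-like nuclei. Neither response of Kcnn3 passed the edgeR test within its own class. Kcnip2 had a difference of 0.3905, from 0.10 in dentate granule-like and -0.30 in CA1 pyramidal-like nuclei, where its groups stood at 152, 115 and 133 CPM under oxygen and 96.0, 113 and 116 CPM after sevoflurane. With each of the 6 libraries left out in turn, Kcnj3 was called 3 times, Kcnn3 2 times and Kcnip2 1 time.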

How the results depend on the processing

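No result changed direction under any alternative run. The 27 calls over 13 classes became 47 with DESeq2, 54 with no filter on low counts and 12 with the length correction, and the 6 over all nuclei became 11 with DESeq2 and 0 with the length correction. With DESeq2 the calls were 2 in oligodendrocyte-like, 8 in CA1 pyramidal-like, 7 in CA3 pyramidal-like, 7 in subicular or cortical excitatory-like, 9 in inhibitory-like and 1 in oligodendrocyte precursor-like nuclei. With no filter they were 2 in oligodendrocyte-like, 10 in CA3 pyramidal-like, 7 in subicular or cortical excitatory-like, 8 in inhibitory-like, 4 in oligodendrocyte precursor-like, and 1 each in ependymal-like, CA2 pyramidal-like and newly formed oligodendrocyte-like nuclei. With the length correction they were 4 in dentate granule-like, 0 in oligodendrocyte-like, 2 in CA1 pyramidal-like and 1 each in inhibitory-like, subicular or cortical excitatory-like and CA3 pyramidal-like nuclei. Shares of all genes called under these alternatives, the replicate block and the fits with 1 library left out are not given here. The member counts alone therefore do not show whether members were called more often than other genes. The cause of these shifts was not tested.

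Same-numbered libraries did not deviate together (correlations from -0.147 to 0.0984). Whether they were handled as pairs is not stated, and with 3 libraries in a group these correlations cannot decide it. With the replicate block the calls were 0 over all nuclei, 21 over the 13 classes, 4 in dentate granule-like, 1 in CA3 pyramidal-like and 3 in inhibitory-like nuclei.

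With 1 library left out, calls ranged from 0 to 1 over all nuclei and from 10 (without oxygen replicate 2) to 28 (without sevoflurane replicate 1) over the 13 classes. The ranges were 3 to 8 in dentate granule-like, 0 to 1 in oligodendrocyte-like, 1 to 6 in astrocyte-like, 2 to 5 in CA1 pyramidal-like, 1 to 3 in CA3 pyramidal-like, 0 to 5 in subicular or cortical excitatory-like, 0 to 2 in oligodendrocyte precursor-like, 2 to 6 in inhibitory-like and 0 to 1 in CA2 pyramidal-like nuclei, and 0 to 2 for the difference between dentate granule-like and CA1 pyramidal-like nuclei. In simulated data, genes changed by 0.5 on the log2 scale were recovered at 4.92% in endothelial-like and 25% in dentate granule-like nuclei, and those changed by 1 at 66.7% and 81.2%, so small changes could be missed in both.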
